A study of Mus musculus with 4 samples.

Results

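The RAS-RAF-MEK-ERK cascade is represented here by 8 genes chosen by name, Grb2, Sos1, Mras, Araf, Braf, Map2k1, Map2k2 and Mapk3, of 25170 genes in the deposited table. All 8 had a row. The table holds ribosome footprints of E14, a wild-type line of mouse embryonic stem cells. The cells were kept on gelatin in serum and leukemia inhibitory factor (LIF), and no feeder layer is named. PD cells were kept in 1 µM PD for 3 passages and DMSO cells in the solvent for 3 passages, with 2 libraries per group. The labels name the compound only as PD and do not say whether the replicates were separate cultures, and the spread behind each p-value is then that between libraries, which may be technical. The study asks what the kinase Mek does in gene regulation after transcription.

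The cascade carries growth factor signals from receptors at the membrane to the nucleus. The adaptor Grb2 brings the exchange factor Sos1 to active receptors, Sos1 loads RAS proteins with GTP, and RAS proteins recruit RAF kinases, which phosphorylate the MEK kinases, which phosphorylate the ERK kinases. In mouse embryonic stem cells, FGF signals through this cascade promote exit from the naive state, and inhibitors of MEK are used to hold cells in it. The inhibitors act on kinase activity, whereas a footprint count follows the amount of a gene's mRNA and the density of ribosomes on it, which cannot be told apart here. In cultures measured in bulk, fewer cells that express a gene and less RNA per cell cannot be told apart either.

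Levels are given in FPKM, fragments scaled by gene model length and by each library's mapped fragments. It is unknown here whether that length covers coding sequence only, and levels of different genes are comparable only as far as it fits the footprints. Bounds are the lower and upper confidence bounds deposited with each value. Whole reads were recovered from the FPKM steps for 7 of the 8 genes, with Araf the exception. The recovered reads are minimal, since a common factor cannot be seen from the steps. Relative to DMSO replicate 1, depth was 0.464 in PD replicate 1, 0.201 in PD replicate 2 and 1.42 in DMSO replicate 2, so depth went with treatment. Outside small RNA genes the FPKM sums lay between 261384 and 275874, and all 10 embryonic stem cell markers averaged at least 1 FPKM. So did 2 of 3 neural progenitor markers, 0 of 4 primitive endoderm markers and 0 of 3 mesoderm markers. The stem cell list summed to 2221 and 3849 FPKM in PD and to 2272 and 2237 FPKM in DMSO. Dppa5a alone gave most of each sum, with 1421 and 3203 FPKM in PD and 1414 and 1633 FPKM in DMSO. The high sum in PD replicate 2 thus came from that gene. The neural list summed to 1.76 and 4.24 FPKM in PD and to 4.13 and 2.26 FPKM in DMSO. Of 8 fibroblast markers, Postn was at 0 in every library, and the 7 other than Vim summed to 3.1 and 4.67 FPKM in the PD libraries and to 1.94 and 2.52 FPKM in the DMSO libraries. With Vim, the list summed to 210.0 and 189.97 FPKM in the PD libraries and to 106 and 32.2 FPKM in the DMSO libraries. The part of these markers in the results was not tested.

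None of the 7 cascade genes that could be tested passed between PD and DMSO. limma on log2(FPKM + 1), adjusted by Benjamini-Hochberg over 9741 tested genes, gave adjusted p-values of 0.825 to 0.999 for 7 cascade genes, and Braf, whose mean was under the required 1 FPKM, was not tested. Over all tested genes, 0.0308% passed as higher in PD and 0.226% as lower, and none of these was protein-coding. Of the 7 genes, 1 had an unadjusted p under 0.05, as did 5.76% of all tested genes. With voom on recovered reads, 0 of 6 tested genes passed and 1 had an unadjusted p under 0.05. The libraries of the groups did not overlap for 5 of the 7 genes, against 35.8% of all tested genes. Among all 7 genes, 4 lay lower in both PD libraries, against 18.3% of all tested genes, and 1 lay higher, against 17.5%.

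**Figure D1:**
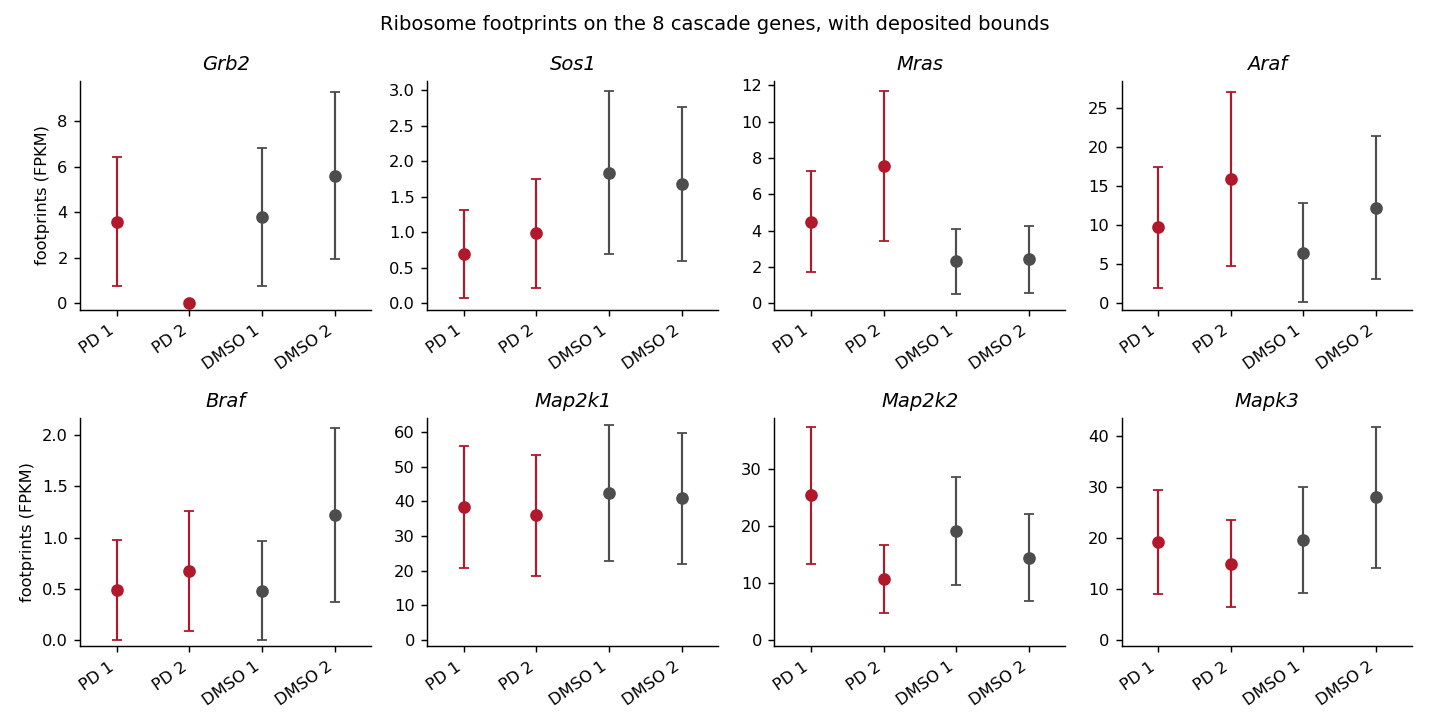
Footprints in FPKM (vertical axes, each from about 0) on the 8 cascade genes in the 4 libraries (horizontal axes, PD red, DMSO grey), with the deposited lower and upper bounds as bars. Mras lies higher in both PD libraries, Grb2 is listed at 0 in PD replicate 2, and for the 7 genes other than Grb2 every PD bar overlaps every DMSO bar.

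Among the components at the receptor, Grb2 (mm10, chromosome 11, 115644045 to 115708597) had 3.59 FPKM in PD replicate 1 and was listed at 0 in PD replicate 2, against 3.8 and 5.62 FPKM in the DMSO libraries. These values came from 18 and 0 recovered reads in the PD libraries and from 41 and 86 in the DMSO libraries. The library at 0 is the shallowest, where 3 reads of Grb2 would be worth 1.38 FPKM. Whether the listed 0 of Grb2 means that no ribosome was there was not tested. Pgk1, a glycolytic enzyme that cells generally use, was also listed at 0, in PD replicate 1 and DMSO replicate 2. Pgk1 had 0.661 FPKM in PD replicate 2 and 0.266 FPKM in DMSO replicate 1. It was thus low in every library, unlike Grb2, and is no parallel for a 0 in 1 library. On reads of Grb2, the summed PD rate was 0.515 of the DMSO rate (exact interval 0.296 to 0.847, counting error only). PD replicate 2 over PD replicate 1 gave a ratio of 0 (exact interval 0 to 0.524). The PD replicates of Grb2 thus differed beyond counting error, and the cause was not tested. Among 1905 protein-coding genes over 20 FPKM in both DMSO libraries, PD replicate 2 listed 3 at 0 and PD replicate 1 listed 0. Grb2, at 3.8 and 5.62 FPKM in DMSO, is below that cut, so these counts give no rate for genes at its level. The fitted log2 difference of Grb2 was -1.39 (SE 0.82, limma adjusted p = 0.837), and without PD replicate 2 it was -0.29. PD replicate 1 alone was close to DMSO replicate 1, and the size of the difference thus came from 1 library.

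Sos1, the exchange factor that Grb2 brings to the membrane (chromosome 17, 80393752 to 80480453), had 0.695 and 0.985 FPKM in the PD libraries and 1.83 and 1.68 FPKM in the DMSO libraries. Both PD libraries lay below both DMSO libraries. The means were 0.84 ± 0.205 FPKM in PD and 1.76 ± 0.109 FPKM in DMSO (SD, n = 2 each). The values rest on 13 and 8 reads in PD and on 74 and 96 reads in DMSO. The log2 difference was -0.59 with a 95% interval of -1.54 to 0.37 (limma adjusted p = 0.837). On reads alone, the summed PD rate was 0.449 of the DMSO rate, with an exact 95% interval of 0.271 to 0.708 that covers counting error only. The PD libraries differed from each other by a ratio of 1.42, with an interval of 0.509 to 3.69, and the DMSO libraries by 0.916, with an interval of 0.669 to 1.26. Its relative Sos2, also an exchange factor, had 0.603 and 0.595 FPKM in PD and 0.0799 and 0.451 FPKM in DMSO, from 7, 3, 2 and 16 reads, and its mean of 0.432 FPKM was below the required 1 FPKM. Sos1 made up 53.5% and 62.3% of the summed SOS footprints in the PD libraries and 95.8% and 78.8% in the DMSO libraries.

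Mras encodes a RAS family GTPase that, bound to the scaffold Shoc2 and a phosphatase, removes an inhibitory phosphate from RAF kinases. It lies on chromosome 9, 99385420 to 99436712. Mras had 4.5 and 7.56 FPKM in the PD libraries, against 2.31 and 2.43 FPKM in the DMSO libraries. Both PD values were above both DMSO values, and the PD values lay further apart than the DMSO values did. The means were 6.03 ± 2.17 FPKM in PD and 2.37 ± 0.0823 FPKM in DMSO (SD, n = 2 each). The reads were 37 and 27 in PD and 41 and 61 in DMSO. The log2 difference was 1.03 (SE 0.35, 95% interval 0.10 to 1.95, limma adjusted p = 0.825), and Mras was the gene counted above with an unadjusted p under 0.05. In a fit with no filter on low values its 95% interval was -0.05 to 2.10. In that fit 0 of 8 cascade genes had an unadjusted p under 0.05 (limma). The difference stood above 97.5% of the differences of the 8863 protein-coding genes tested. On reads, the PD rate was 2.28 times the DMSO rate, with an exact interval of 1.64 to 3.15 for counting error. PD replicate 2 over PD replicate 1 gave a ratio of 1.68 (0.984 to 2.84) and DMSO replicate 2 over DMSO replicate 1 gave 1.05 (0.696 to 1.6). Without PD replicate 2 the log2 difference was 0.71, and without PD replicate 1 it was 1.35.

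Hras and Nras, RAS proteins well known as RAF activators, had log2 differences of 0.11 and -0.37. Hras had 6.83 and 6.99 FPKM in PD and 6.22 and 6.46 FPKM in DMSO, without overlap and with a small distance. Nras had 7.83 and 7.54 FPKM in PD and 10.7 and 9.78 FPKM in DMSO. Of the summed footprints on Mras, Hras, Nras, Rras and Rras2, Mras made up 15.2% and 25.4% in the PD libraries and 7.61% and 6.09% in the DMSO libraries. The sum itself was 29.6 and 29.8 FPKM in PD and 30.4 and 39.9 FPKM in DMSO. Shoc2, the partner of Mras, had 3.25 and 3.6 FPKM in PD and 3.29 and 4.51 FPKM in DMSO. With 2 libraries against 2, an exact permutation test of such a share cannot give a two-sided p below 0.333, so the shares are given as values.

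The RAF kinases Araf and Braf stood at very different levels. Araf had 9.71 and 15.9 FPKM in the PD libraries and 6.51 and 12.3 FPKM in the DMSO libraries. The groups overlapped, and the libraries within each group lay further apart than the group means of 12.8 FPKM in PD and 9.38 FPKM in DMSO. Its log2 difference was 0.43 with a 95% interval of -0.72 to 1.58 (limma adjusted p = 0.87). It was 0.76 without PD replicate 1, 0.10 without PD replicate 2, 0.02 without DMSO replicate 1 and 0.84 without DMSO replicate 2. Whole reads could not be recovered for Araf. Its row spans chromosome X, 20848543 to 20920918, and reaches past the RefSeq end of the gene at 20860521. The row of Araf overlaps Syn1, Timp1 and the microRNA gene Mir5617. Its value may therefore hold reads of neighbours, which was not tested. Other annotated genes also lie within the rows of Map2k1 (Uchl4), Sos1 (Arhgef33 and the pseudogenes Gm18141 and Gm18650) and Braf (Gm34389 and the pseudogene Fth-ps2), and their part was not tested either.

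Braf (chromosome 6, 39603237 to 39725463), the RAF kinase with the highest basal activity, had 0.489 and 0.676 FPKM in the PD libraries, against 0.476 and 1.217 FPKM in the DMSO libraries. It rested on 10 and 6 reads in PD and on 21 and 76 reads in DMSO. The DMSO libraries differed from each other by a ratio of 2.55 (exact interval 1.56 to 4.36), so they lay further apart than counting error allows. In a fit with no filter on low values the log2 difference of Braf was -0.20 (limma adjusted p = 0.871). On summed reads the ratio of PD to DMSO was 0.599, with an exact interval of 0.329 to 1.02 that covers counting error only.

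**Figure D2:**
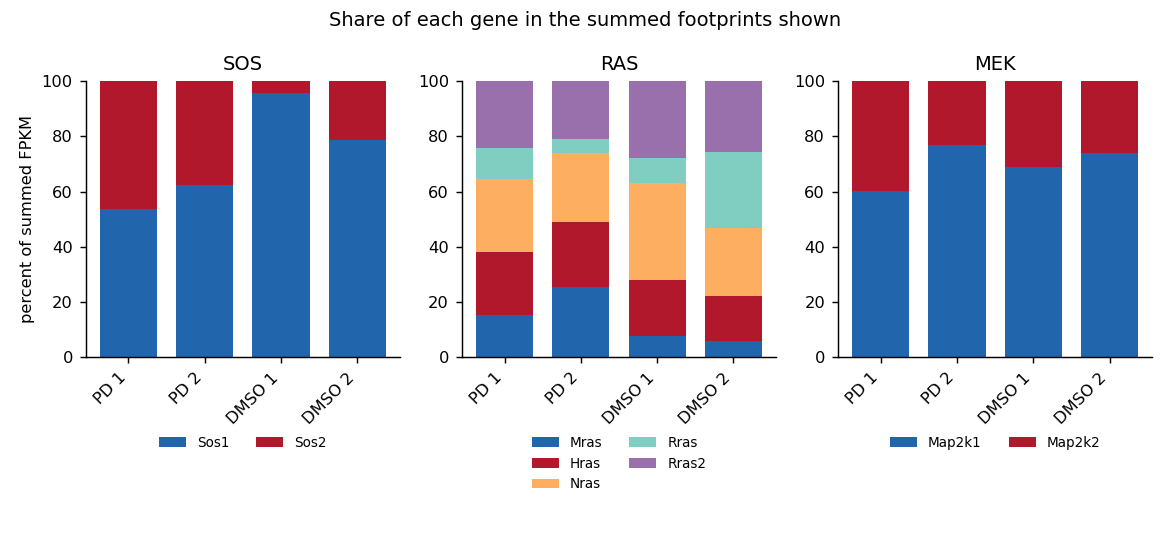
Share of each gene (percent of summed FPKM, vertical axes) within the SOS genes, the RAS family genes Mras, Hras, Nras, Rras and Rras2, and the MEK genes in the 4 libraries (horizontal axes, PD left of DMSO). Mras takes 15.2% and 25.4% of the RAS family genes shown in PD and 7.61% and 6.09% in DMSO, while Map2k1 takes most of the MEK footprints in each library.

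The MEK kinases follow, the proteins that the study's question concerns. Map2k1, which encodes MEK1 (chromosome 9, 64185769 to 64253605), had 38.4 and 35.9 FPKM in the PD libraries and 42.3 and 40.9 FPKM in the DMSO libraries. It was the best covered of the 7 genes with recovered reads, with 182 and 74 reads in PD and 433 and 593 reads in DMSO. Both PD libraries lay below both DMSO libraries, by a small distance. The log2 difference was -0.16 with a 95% interval of -0.79 to 0.47, which corresponds to ratios of 0.578 to 1.38 on the FPKM + 1 scale (limma adjusted p = 0.919). On reads the ratio of PD to DMSO was 0.906, with an exact interval of 0.787 to 1.04. Replicates of Map2k1 agreed within counting error in both groups, with ratios of 0.936 (0.705 to 1.23) in PD and 0.967 (0.853 to 1.1) in DMSO.

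Map2k2, which encodes MEK2 (chromosome 10, 81105915 to 81124697), had 25.4 and 10.7 FPKM in the PD libraries, against 19.1 and 14.5 FPKM in the DMSO libraries. The PD values lay on both sides of the DMSO values. Its reads were 120 and 22 in PD and 195 and 209 in DMSO, and PD replicate 2 over PD replicate 1 gave a ratio of 0.422 (exact interval 0.255 to 0.669). The PD replicates of Map2k2 thus differed beyond counting error. The DMSO replicates differed too, by a ratio of 0.757 (0.62 to 0.924). The log2 difference between groups was -0.01 with a 95% interval of -1.29 to 1.28, and its sign changed between settings, at 0.58 without PD replicate 2 and -0.59 without PD replicate 1. On summed reads, which weight PD replicate 1 more than PD replicate 2, the ratio of PD to DMSO was 1.28 (exact interval 1.05 to 1.55 for counting error), opposite in direction to the fitted difference. Map2k1 made up 60.2% and 77% of the summed MEK footprints in the PD libraries and 68.9% and 73.9% in the DMSO libraries. The MEK sum was 63.8 and 46.7 FPKM in PD and 61.5 and 55.4 FPKM in DMSO, so the groups overlapped in both measures.

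**Figure D3:**
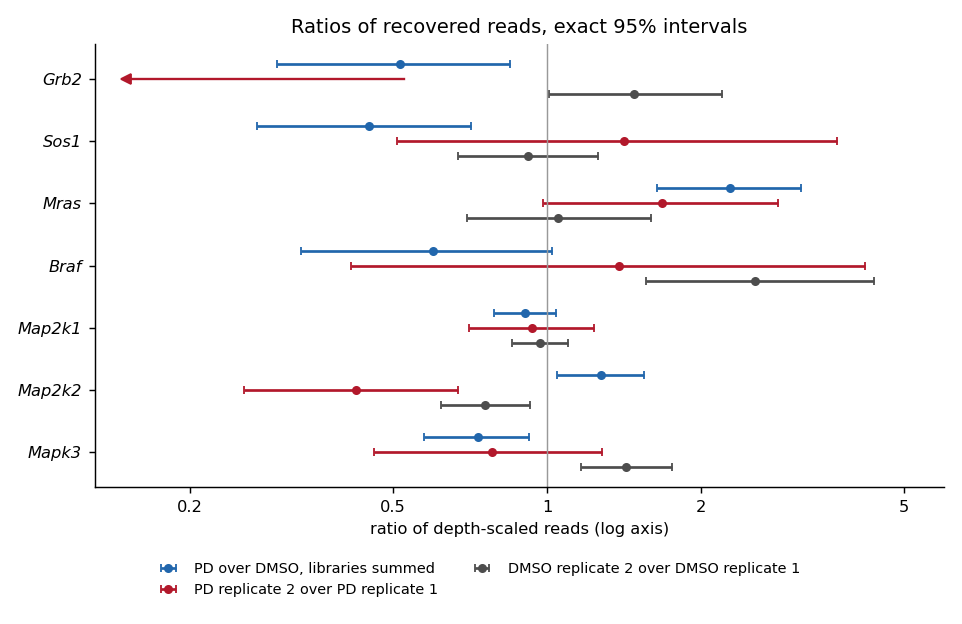
Ratios of depth-scaled recovered reads (horizontal log axis) for the 7 cascade genes with recovered reads: PD over DMSO with libraries summed (blue), PD replicate 2 over 1 (red) and DMSO replicate 2 over 1 (grey), with exact 95% intervals that cover counting error only. The arrow marks Grb2, with 0 reads in PD replicate 2, and the line runs up to the interval's bound of 0.524.

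Mapk3, which encodes ERK1, the kinase that MEK phosphorylates (chromosome 7, 126759626 to 126765816), had 19.3 and 15.0265 FPKM in the PD libraries and 19.7 and 28.1 FPKM in the DMSO libraries. Both PD libraries lay below both DMSO libraries, but PD replicate 1 and DMSO replicate 1 were close together. The reads were 65 and 22 in PD and 143 and 289 in DMSO. The log2 difference was -0.44 with a 95% interval of -1.27 to 0.39 (limma adjusted p = 0.837). It was -0.61 without PD replicate 1, -0.27 without PD replicate 2, -0.69 without DMSO replicate 1 and -0.20 without DMSO replicate 2. The DMSO replicates differed by a ratio of 1.43 (exact interval 1.16 to 1.76), which is about as far from 1 as the PD over DMSO ratio of 0.732 (0.574 to 0.923).

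**Figure D4:**
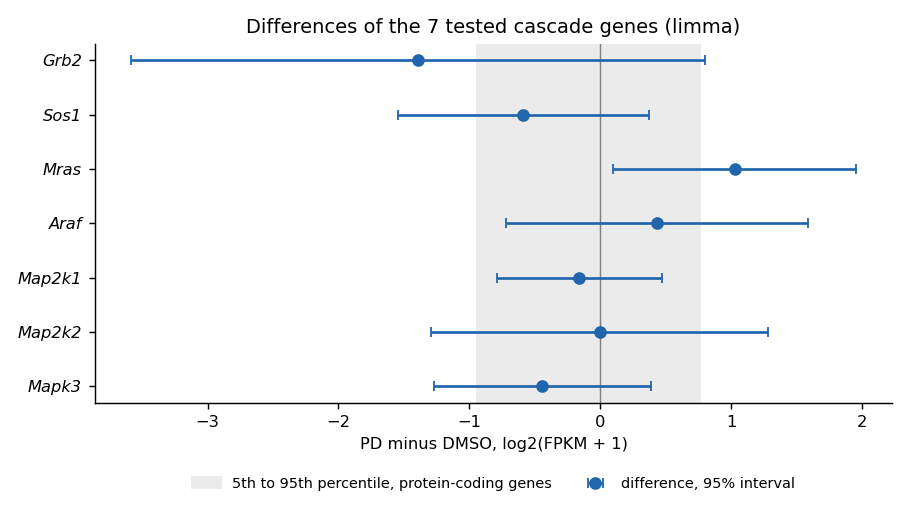
Difference between PD and DMSO in log2(FPKM + 1) (horizontal axis) for the 7 tested cascade genes, with limma's 95% intervals, beside the span between the 5th and 95th percentile of the 8863 protein-coding genes tested (grey, -0.94 to 0.76). The interval of Mras alone does not include 0, before adjustment for the number of genes, and the interval of Grb2 is the widest.

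By mean level over the 4 libraries the order was Map2k1 (39.4 FPKM), Mapk3 (20.5), Map2k2 (17.4), Araf (11.1), Mras (4.2), Grb2 (3.25), Sos1 (1.3) and Braf (0.714). Map2k1 was above Mapk3, Araf above Mras, and Sos1 above Braf in 4 of 4 libraries. Mapk3 was above Map2k2, Map2k2 above Araf, and Grb2 above Sos1 in 3 of 4 libraries, so these neighbours in the order do not lie apart. Mras was above Grb2 in both PD libraries and below it in both DMSO libraries, so the order of this pair turned with the group. Map2k1 stood above 94.2% of protein-coding genes in mean level, Mras above 73.6% and Braf above 54%.

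Beyond these genes, 41 further components of the pathway were examined, of which 29 were tested. None of the 29 passed under limma, and 1 had an unadjusted p under 0.05, as did 5.76% of all tested genes. With voom on recovered reads 0 of 23 passed and 1 had an unadjusted p under 0.05. 3 of the 29 lay higher in both PD libraries, 9 lower and 17 overlapped, where 17.5% of all tested genes lay higher and 18.3% lower. Both directions together, 12 of the 29 did not overlap, which was near the share of all tested genes (35.8%). More of the 29 lay lower than higher, whereas all tested genes were nearly even, and this imbalance was not tested. The median log2 difference was -0.10, beside -0.16 for the 7 cascade genes and -0.02 for all tested genes. The largest difference was that of Pebp1, an inhibitor of the step from RAF to MEK. Pebp1 had 2.37 FPKM in PD replicate 1 and was listed at 0 in PD replicate 2, against 6.17 and 7.93 FPKM in the DMSO libraries, from 5, 0, 28 and 51 reads. Its log2 difference was -2.12 (limma adjusted p = 0.816). As for Grb2, the library at 0 is the shallowest.

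The next largest differences were those of the GTPase Rras, the ERK-activated kinase Rps6ka5 and the ERK-binding protein Pea15a. Rras had 3.28 and 1.51 FPKM in PD and 2.74 and 10.9 FPKM in DMSO, so its difference of -1.03 came from DMSO replicate 2. Rps6ka5 had 1.03 and 0.394 FPKM in PD and 1.07 and 2.75 FPKM in DMSO, and Pea15a had 6.68 and 3.36 FPKM in PD and 11.1 and 5.6 FPKM in DMSO. The highest mean levels among these components were those of Lamtor2, Rasgrp2, Gab1 and Rap1b. Whole reads could not be recovered for Lamtor2, Rasgrp2 and Gab1, and genes that overlap their rows were not looked up. Lamtor2, a subunit of the late endosomal complex that anchors MEK1, had 89.5 and 59.9 FPKM in PD and 108 and 110 FPKM in DMSO. Gab1, a docking protein that Grb2 binds, had 62.01 and 60.8 FPKM in PD and 51.9 and 54.5 FPKM in DMSO, with a log2 difference of 0.20. Rasgrp2, an exchange factor of Rap proteins, had 78.8 and 105 FPKM in PD and 104 and 70.4 FPKM in DMSO, and overlapped. Rap1b, a GTPase of the RAS superfamily, had 25.5 and 42.03 FPKM in PD and 29.003 and 24.1 FPKM in DMSO, and also overlapped.

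Kinases of the parallel MAPK cascades, which relay stress and cytokine signals to JNK, p38 and ERK5, also had no member that passed among 16 tested of 24 (limma, 0 at an unadjusted p under 0.05, and 0 of 9 with voom). 3 lay higher and 4 lower in both PD libraries, beside 17.5% and 18.3% of all tested genes, and the median log2 difference was -0.23, beside -0.02 for all tested genes. Map2k3, which activates p38, had 15.5 and 15.6 FPKM in PD and 10.2 and 12.7 FPKM in DMSO. Mapk14, which encodes p38 alpha, had 10.7 and 12.01 FPKM in PD and 13.4 and 15.2 FPKM in DMSO. Map2k7, which activates JNK, had 14.3 and 9.49 FPKM in PD and 9.24 and 8.21 FPKM in DMSO. The atypical kinase Mapk6 had 9.19 and 7.24 FPKM in PD and 6.69 and 17.4 FPKM in DMSO. The 4 largest differences of this list were -0.74 for Map3k3, -0.69 for Map2k6, -0.67 for Mapk13 and -0.66 for Map3k20. Differences in this list ran from -0.74 to 0.42, and those of the cascade genes from -1.39 for Grb2 to 1.03 for Mras.

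**Figure D5:**
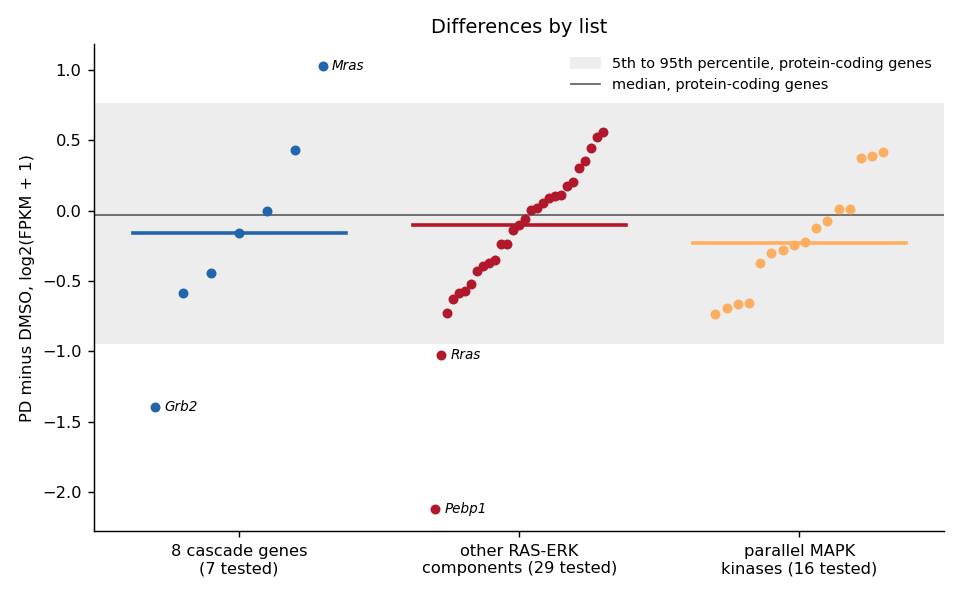
Difference between PD and DMSO in log2(FPKM + 1) (vertical axis) for each tested gene of the 3 lists (horizontal axis), with each list's median as a bar, the median of protein-coding genes as a line, and their 5th to 95th percentile in grey. Mras lies above that span and Grb2, Rras and Pebp1 lie below it, and Grb2 and Pebp1 are listed at 0 in PD replicate 2.

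The genes most like Map2k1 and Mras over the 4 libraries were found by the Euclidean distance between log2(FPKM + 1) values centred on each gene's mean, among protein-coding genes that averaged 5 FPKM or more. The 3 genes nearest to Map2k1 were Cenpf, Nasp and Pi4ka, at distances of 0.0226, 0.024 and 0.0433 among 5006 genes. Cenpf, a kinetochore protein, had 11.5 and 10.7 FPKM in PD and 12.7 and 12.5 FPKM in DMSO. The 3 nearest to Mras were Myof, Donson and Gm20594, at distances of 0.133, 0.142 and 0.15 among 5007 genes. Myof, a membrane repair protein, had 6.99 and 10.6 FPKM in PD and 3.26 and 3.5 FPKM in DMSO. With 4 libraries, such a likeness describes these values only.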

How the data were processed

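Ribosome footprint libraries of E14 cells (2 PD, 2 DMSO) were used. The authors deposited FPKM with confidence bounds in 1 table of 25170 genes, in the layout of Cufflinks, per the file headers. Cufflinks, STAR, Bowtie2, Trimmomatic and FastQC and the build mm10 are listed in the submitters' processing notes. Versions, the handling of reads with several matches and any restriction to coding sequence are not given in the sources used here. Types of genes came from RefSeq on GRCm38.p6 (24976 symbols matched). 1 was added to each deposited start. 1 gene with a failed status was left out.

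Here, 9741 genes that averaged 1 FPKM or more were fitted as log2(FPKM + 1) with limma 3.58.1 (R 4.3.3; lmFit, then eBayes, variance trend on), with no term besides group, adjusted by Benjamini-Hochberg at 0.05. A pseudocount understates changes of low genes. Reads were recovered with a tolerance of 0.02 reads and up to 200 reads in the lowest library. This worked for 70.9% of 10161 genes above 0 in all libraries, against 1.26% with wrong library steps. Among genes named from the other lists it failed for Nras, Pea15a, Lamtor2, Rasgrp2, Gab1, Map2k3, Map2k7, Mapk6 and Map3k20. Intervals on reads are exact (Clopper-Pearson, conditional on the sum), at 95%, and cover counting error only. The 8 genes and the lists were chosen with earlier results of these data known. All 8 are named. In each other list, the 4 largest differences and the 4 highest means are named, and relatives and partners of the 8 genes (Sos2, Hras, Nras, Rras2, Shoc2) are named in addition. Some pathway genes are not reported here and were left out of the lists and their counts.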

Additional observations from a re-analysis of the deposited data

How the results depend on the processing

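Across 11 kinds of alternative, the log2 differences of the 7 tested genes kept their direction and stayed short of the threshold, except for the direction of Map2k2. Araf could not be run with voom, and Mras, Grb2 and Sos1 fall out under a filter of 5 FPKM. The difference of Map2k2 (-0.01) was 0.059 with quantile normalization, 0.16 with voom on recovered reads, and -0.59 to 0.58 when 1 library was left out, with 0.18 without DMSO replicate 1. The ranges were 0.71 to 1.35 for Mras, -2.96 to -0.29 for Grb2, -1.11 to -0.47 for Sos1, 0.02 to 0.84 for Araf, -0.69 to -0.20 for Mapk3 and -0.21 to -0.09 for Map2k1, and the smallest adjusted p of any was 0.382 (limma, Grb2 without PD replicate 1). The ends of the ranges for Araf and Mapk3 came from leaving out 1 library, and the sizes for Mras, Grb2, Araf and Mapk3 depended on which PD library was kept. Over all genes, 3 passed as higher and 22 as lower in PD. 0 passed in either direction after rescaling without small RNA genes, among protein-coding genes only and with voom, and leaving out 1 library gave 0 to 27 higher and 0 to 30 lower. The median of the 7 tested genes was -0.16 and became -0.28 with voom and -0.47 without PD replicate 1, that of the further pathway components was -0.10 and ran from -0.27 without DMSO replicate 1 to 0.04 without DMSO replicate 2, and that of the parallel kinases was -0.23 and became 0.12 among genes averaging 5 FPKM or more, 0.00 without DMSO replicate 2 and -0.01 without PD replicate 2. With the replicate number as a block, 2 genes passed as higher and 17 as lower, and no cascade gene passed. Whether same-numbered libraries were paired is not stated. Their deviations from the group means correlated at 0.0992 across genes. With 2 libraries per group this is 1 correlation, which cannot settle the pairing. The order of mean levels was the same in the rescaled table for all 8 genes. Depth limits the statements on Braf, Sos1, Sos2 and Grb2, which had at most 18 reads in each PD library. The same limit holds for Pebp1, Rras, Rps6ka5, Map3k3, Map2k6 and Mapk13 in the other lists.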
